A study of Oryzias latipes with 6 samples.

Results

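Planar cell polarity aligns cells, and the cilia they bear, within the plane of a tissue. At its core, Frizzled receptors and the cytoplasmic protein Dishevelled face Vangl and Prickle across cell borders, with the cadherin Celsr on both sides. The formin Daam1 carries the signal from Dishevelled to actin. Dishevelled also serves the beta-catenin branch of Wnt signalling, and Jade1 is a scaffold protein of a histone acetyltransferase complex that can target beta-catenin for degradation. In vertebrate cells nephrocystin-4, the product of nphp4, has been reported to bind inversin, to lower Dishevelled and to affect the stability of Jade1, which makes these genes a group to look at in nphp4 mutant testis.

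The genes described here are the rows of the deposited table whose symbol is dvl1, dvl2, dvl3, vangl1, vangl2, prickle1, celsr1, fzd3, jade1 or daam1, with a final a or b allowed, and rows without a symbol whose Swiss-Prot match carries one of these names. The 10 names gave 14 of 24365 genes: dvl1a, dvl2, dvl3a, VANGL2, vangl1, prickle1a, celsr1a, fzd3a, fzd3b, jade1, daam1b and 3 genes known by an identifier. ENSORLG00000003756 matches mouse Vangl1 and is vangl1 of RefSeq, ENSORLG00000013121 matches human PRICKLE1, and ENSORLG00000008721 matches human DAAM1. The genes lie on chromosomes 2, 3, 6, 7, 17, 18, 21, 22, 23 and 24.

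The samples were 6 RNA sequencing libraries from the testis of medaka (Oryzias latipes), 3 from wild-type fish and 3 from nphp4-/- fish that the series design calls a gene knockout, each pooling the testes of 2 individuals. The labels used here give neither the lesion nor the age or strain of the fish. Levels are in FPKM, counts divided by gene length and by a total per library. The libraries held 13438879 to 16054354 reads on genes, while the totals recovered from the FPKM values were 13670728 to 16639681. In wild type 3 this total (13693794) was below the reads on genes (15516979), and in the other 5 libraries it was above them. Nothing in the labels ties the fish of 1 library to those of another, and with whole testes fewer cells of a type and less RNA per cell cannot be told apart.

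The tissue label was checked against markers. The 7 germ cell rows summed to 1736 to 2383 FPKM per library and the 9 Sertoli cell rows to 996 to 1309 FPKM. They were led by a ddx4 match of the germ line at 431 to 593 FPKM and by gsdf of Sertoli cells at 746 to 1078 FPKM, while nanos2 (1.36 to 2.71 FPKM), wt1b (1.64 to 3.25 FPKM) and cldn11b (0.0911 to 7.41 FPKM) were low. Of 6 Leydig cell names only star and hsd3b1 were matched, led by a star match at 215 to 318 FPKM. Wild type 3 stood apart through genes of other organs. Its 10 exocrine pancreas markers summed to 22127 FPKM, against 1337 to 3341 FPKM in 4 libraries and 317 FPKM in mutant 1. Its 9 intestinal markers summed to 516 FPKM, against 78.0 FPKM in mutant 2 and 4.70 to 8.59 FPKM in the rest, with fabp1a at 0 in all libraries. Values without wild type 3 are therefore given for the genes of the group and for those named from the lists. The targeted gene nphp4 (ENSORLG00000023493) was at 17.1, 23.5 and 12.2 FPKM in wild type 1, 2 and 3 and at 6.84, 7.0 and 10.9 FPKM in mutant 1, 2 and 3. Every mutant library lay below every wild-type library (log2 difference -0.99, SE 0.27, adjusted p = 0.436 in limma), so the labels and the level of nphp4 point the same way although the gene did not pass over all genes.

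No gene of the group differed between mutant and wild-type testis beyond the threshold. Of the 14 genes, 12 reached a mean of 1 FPKM in wild type or mutant and entered a limma fit over all 15203 such genes, in which a gene was called at a Benjamini-Hochberg adjusted p below 0.05. 0 of the 12 were called, where the fit called 0.0592% of all tested genes, and their adjusted p in limma ran from 0.692 to 0.996. At an unadjusted p below 0.05, limma found 1 of the 12 (8.33%), VANGL2, against 7.13% of all tested genes. limma-voom on read counts recovered from the FPKM called 0 of the 12, with 0 at an unadjusted p below 0.05. It called 0 of all 15203 genes, with 941 at an unadjusted p below 0.05, so its 0 calls say nothing particular to the group. The groups did not overlap in 2 of the 12 genes (16.7%), where 14.0% of all tested genes had groups without overlap. VANGL2 was the 1 higher gene, against 7.55% of all tested genes, and fzd3a the 1 lower gene, against 6.45%. Both shares are near those of all tested genes. In the other 10 tested genes the 2-sided exact permutation p was 0.2 to 1.0. Of the 12 genes, celsr1a and ENSORLG00000008721 entered the test only through their mutant mean, so their higher mutant values were a condition of being tested.

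**Figure D1:**
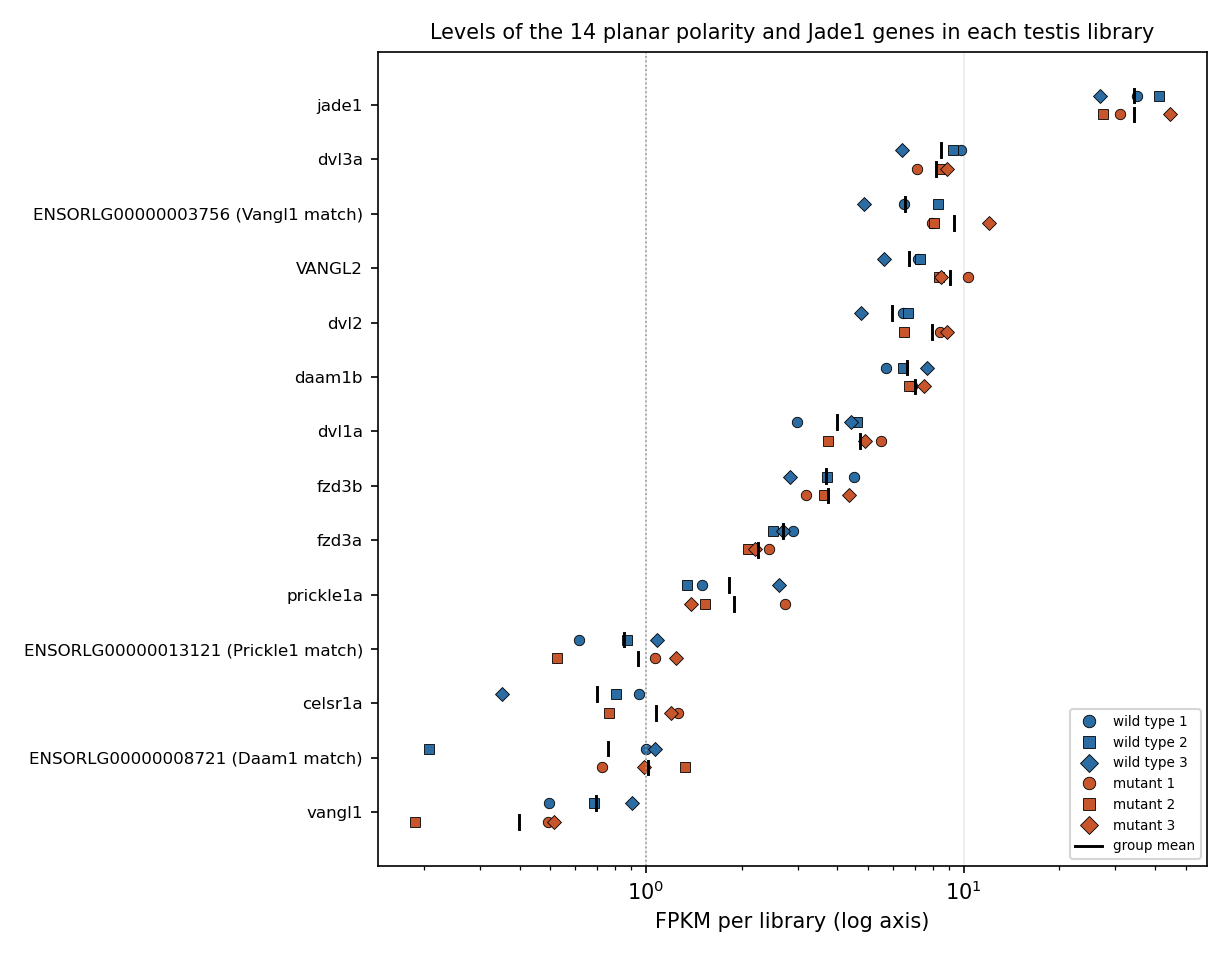
FPKM of each of the 14 genes in each of the 6 libraries on a log axis, with blue symbols for wild type above red symbols for mutant and a black tick for each group mean; the dotted line marks 1 FPKM. jade1 stands above the rest with a mean of 34.3 FPKM, and wild type 3 (blue diamond) is the lowest library in 7 of the 14 genes.

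The levels covered a wide range. jade1 was the most abundant at a mean of 34.3 FPKM over the 6 libraries, and its lowest library (26.8 FPKM) lay above the highest library of dvl3a (9.81 FPKM), the next gene. dvl3a, ENSORLG00000003756, VANGL2, dvl2 and daam1b followed at means of 8.32, 7.94, 7.87, 6.94 and 6.81 FPKM, and neighbours in that order overlapped in range. dvl1a (4.35 FPKM), fzd3b (3.70 FPKM), fzd3a (2.48 FPKM) and prickle1a (1.86 FPKM) came next. The last 4, ENSORLG00000013121, celsr1a, ENSORLG00000008721 and vangl1, had means of 0.900, 0.888, 0.887 and 0.546 FPKM. The range of daam1b did not overlap that of dvl1a, nor that of prickle1a that of ENSORLG00000013121. Read support followed length as well as level: jade1 held 13653 reads over all libraries, daam1b 3678, and ENSORLG00000008721 and vangl1 held 275 and 286.

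Dishevelled relays Frizzled signals into both the polarity and the beta-catenin branch. dvl2 (ENSORLG00000006771, chromosome 18, 14922883 to 14955857, plus strand, in the coordinates of the deposited table) was at 6.42, 6.68 and 4.76 FPKM in wild type 1, 2 and 3 and at 8.41, 6.48 and 8.87 FPKM in mutant 1, 2 and 3. Mutant 1 and 3 lay above all wild-type libraries, and mutant 2 lay below wild type 2. Its log2 difference, mutant minus wild type on the log2(FPKM + 1) scale, was 0.36 (SE 0.18, 95% interval -0.07 to 0.79, adjusted p = 0.773 in limma), and without wild type 3 it was 0.23. dvl3a (ENSORLG00000014122, chromosome 17, 21520462 to 21535006, plus strand) was at 9.81, 9.24 and 6.38 FPKM in wild type and at 7.11, 8.48 and 8.88 FPKM in mutant 1, 2 and 3. The groups overlapped throughout, with a log2 difference of -0.04 (interval -0.48 to 0.41, adjusted p = 0.974 in limma) that took the other sign under scaling by library totals (0.01). dvl1a (ENSORLG00000013944, chromosome 7, 20948304 to 20971814, minus strand) was at 2.98, 4.61 and 4.42 FPKM in wild type and at 5.48, 3.73 and 4.90 FPKM in the mutant. Its groups overlapped as well (log2 difference 0.19, interval -0.28 to 0.67, adjusted p = 0.873 in limma), and the difference was 0.04 without wild type 1 and 0.09 without mutant 1.

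The summed level of the 3 Dishevelled genes averaged 18.4 ± 2.57 FPKM over the wild-type libraries and 20.8 ± 1.99 FPKM over the mutant libraries (SD, n = 3). Their order was not the same in every library. dvl3a led dvl2 in all 3 wild-type libraries, with dvl2 at 0.654 to 0.745 of the level of dvl3a. In the mutant this ratio was 1.18, 0.765 and 1.00 in libraries 1, 2 and 3, so that dvl2 led in mutant 1 and was close to dvl3a in mutant 3 (8.87 and 8.88 FPKM). dvl2 made up 33.4%, 32.5% and 30.6% of the summed level in wild type 1, 2 and 3 and 40.0%, 34.7% and 39.2% in mutant 1, 2 and 3, and these shares did not overlap. This share was chosen after the values were seen and was not tested, and mutant 2 lay only slightly above wild type 1. dvl1a was below both others in all 6 libraries.

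**Figure D2:**
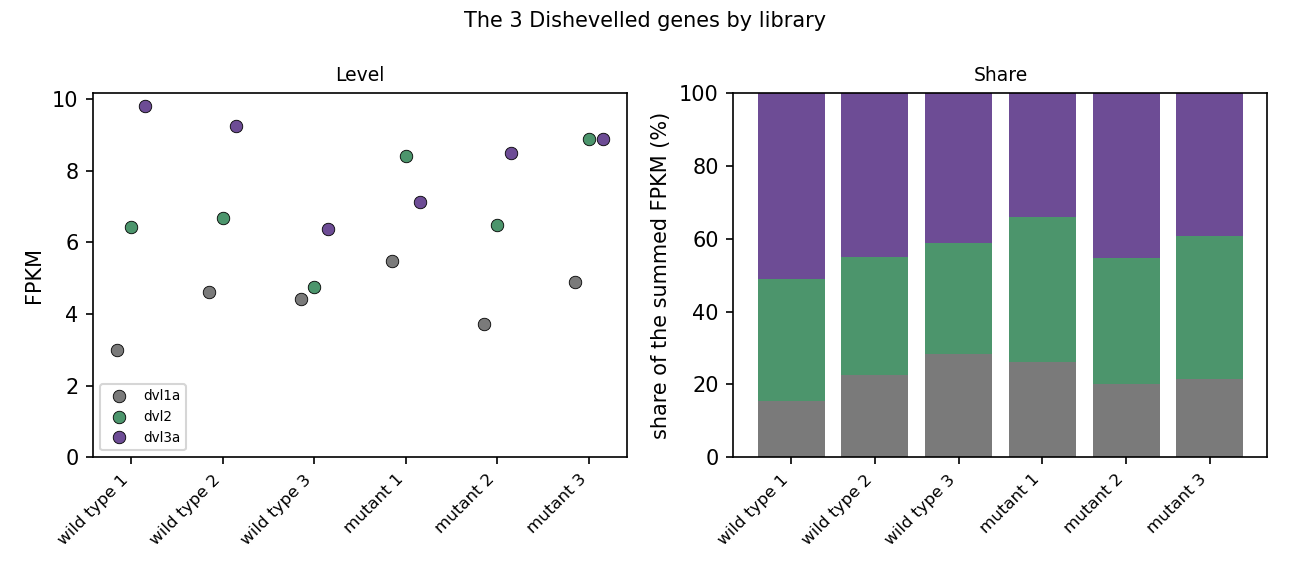
Left, FPKM of dvl1a, dvl2 and dvl3a in each library; right, the share of each in the summed FPKM of the 3 genes, in percent. dvl3a is the largest part in all wild-type libraries (41.0% to 51.1%), and dvl2 reaches 40.0% in mutant 1.

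Vangl proteins sit on the side of the cell opposite Frizzled and Dishevelled. VANGL2 (ENSORLG00000030586, chromosome 17, 3182955 to 3195487, minus strand) was at 7.20, 7.31 and 5.60 FPKM in wild type 1, 2 and 3 and at 10.3, 8.34 and 8.49 FPKM in mutant 1, 2 and 3. All mutant libraries lay above all wild-type libraries, by a log2 difference of 0.38 (SE 0.16, interval 0.01 to 0.76). The unadjusted p was 0.0456 and the adjusted p 0.692 in limma, and by a 2-sided exact permutation test p was 0.1, the lowest value that 3 against 3 libraries allow. With any 1 library left out, the unadjusted p in limma was 0.0518 to 0.156, and without wild type 3 the log2 difference was 0.28. A difference of at least this size in either direction was seen in 19.7% of all tested genes.

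The Vangl1 family has 2 entries in the table, at very different levels. ENSORLG00000003756 (chromosome 2, 16717285 to 16832765, minus strand) was at 6.47, 8.32 and 4.84 FPKM in wild type and at 7.94, 8.09 and 12.0 FPKM in mutant 1, 2 and 3. Wild type 2 lay above mutant 1 and 2, so the groups overlapped (log2 difference 0.46, SE 0.23, interval -0.09 to 1.01, adjusted p = 0.773 in limma). The size of this difference was the largest of the 12 tested genes, and without wild type 3 or without mutant 3 it was 0.29 and 0.28. Its span overlaps ENSORLG00000003807 on the other strand, and counting by strand is not stated. ENSORLG00000003807 was itself at 10.2 to 11.4 FPKM in wild type and at 12.3 to 14.2 FPKM in the mutant. Its part in the values of ENSORLG00000003756 was not tested. The gene listed as vangl1 (ENSORLG00000017880, chromosome 21, 24564663 to 24593004, plus strand) was at 0.495, 0.686 and 0.902 FPKM in wild type and at 0.492, 0.188 and 0.514 FPKM in the mutant. Only wild type 1 lay within the range of the mutant. The gene was below the filter and was not tested. ENSORLG00000003756 was 5.36 to 43.0 times the level of vangl1 within each library, and VANGL2 was near it, at a ratio that ran from 0.706 to 1.29.

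Prickle binds Vangl, and Celsr is the cadherin that bridges neighbouring cells. prickle1a (ENSORLG00000003229, chromosome 6, 12801809 to 12827723, plus strand) was at 1.5, 1.35 and 2.63 FPKM in wild type and at 2.74, 1.53 and 1.39 FPKM in the mutant. Each group held 1 high library, wild type 3 and mutant 1, and the log2 difference was 0.03 (interval -0.60 to 0.66, adjusted p = 0.985 in limma). ENSORLG00000013121 (chromosome 23, 12310412 to 12347584, minus strand) had 28 to 79 reads per library, averaged 0.857 ± 0.235 FPKM in wild-type and 0.944 ± 0.373 FPKM in mutant libraries (SD, n = 3), and was not tested. This gene overlaps ENSORLG00000013095 on the other strand, at 5.79 to 7.35 FPKM. celsr1a (ENSORLG00000018319, chromosome 23, 190621 to 342335, minus strand) was at 0.948, 0.802 and 0.352 FPKM in wild type and at 1.26, 0.766 and 1.2 FPKM in the mutant. Mutant 2 lay below 2 wild-type libraries. Its log2 difference was 0.30 (interval -0.32 to 0.91, adjusted p = 0.859 in limma) and without wild type 3 it was 0.14. With a pseudocount of 0.1 it was 0.61 and in limma-voom 0.76, with adjusted p of 0.859 and 0.88.

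Frizzled-3 is a Wnt receptor of the polarity branch. fzd3b (ENSORLG00000011355, chromosome 3, 24954967 to 24981769, minus strand) was at 4.50, 3.71 and 2.83 FPKM in wild type and at 3.19, 3.62 and 4.37 FPKM in the mutant, with groups that overlapped (log2 difference 0.02, interval -0.43 to 0.47, adjusted p = 0.984 in limma). fzd3a (ENSORLG00000015986, chromosome 24, 13147328 to 13168566, plus strand) was at 2.91, 2.51 and 2.69 FPKM in wild type and at 2.43, 2.10 and 2.21 FPKM in the mutant. All mutant libraries of fzd3a lay below all wild-type libraries. The log2 difference was -0.19 (SE 0.15, interval -0.55 to 0.16, adjusted p = 0.844 in limma; 2-sided exact permutation p = 0.1), also -0.19 without wild type 3. fzd3b was above fzd3a in all 6 libraries, by 1.05 to 1.98 times. fzd3a overlaps cdc42bpab on the other strand and fzd3b overlaps KRTCAP3 on the same strand.

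jade1 (ENSORLG00000017964, chromosome 22, 21645114 to 21652678, plus strand) was at 35.0, 41.1 and 26.8 FPKM in wild type 1, 2 and 3 and at 31.0, 27.5 and 44.5 FPKM in mutant 1, 2 and 3. The groups interleaved, and their means were both 34.3 FPKM (SD 7.21 in wild type and 8.99 in the mutant, n = 3). The log2 difference was -0.01 (SE 0.23, adjusted p = 0.996 in limma). Its 95% interval reached from -0.55 to 0.54, or 0.683 to 1.45 in folds of FPKM + 1, so these libraries do not exclude changes within that range. Its sign depended on the libraries used, from -0.20 without mutant 3 to 0.13 without wild type 2 or mutant 2. jade1 overlaps nsd2 on the other strand, at 5.10 to 7.47 FPKM.

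Daam1 is a formin that binds Dishevelled and builds actin filaments. daam1b (ENSORLG00000017437, chromosome 24, 17001142 to 17050997, plus strand) was at 5.71, 6.46 and 7.66 FPKM in wild type and at 6.85, 6.72 and 7.48 FPKM in the mutant, the narrowest interval of the 12 tested genes together with fzd3a (log2 difference 0.08, -0.27 to 0.43, adjusted p = 0.921 in limma). ENSORLG00000008721 (chromosome 22, 982050 to 993846, minus strand) was at 1.00, 0.208 and 1.07 FPKM in wild type and at 0.725, 1.33 and 0.986 FPKM in the mutant. Wild type 2 held 11 reads of it, and the log2 difference of 0.22 (interval -0.49 to 0.94, adjusted p = 0.896 in limma) became -0.03 without that library. With a pseudocount of 0.1 it was 0.56 and in limma-voom 0.70, with adjusted p of 0.888 and 0.903. It overlaps hadhab on the other strand, which was at 30.8 to 39.5 FPKM. daam1b was 5.06 to 31.1 times the level of ENSORLG00000008721, and overlaps kcnh5a on the other strand, at 6.67 to 8.89 FPKM.

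**Figure D3:**
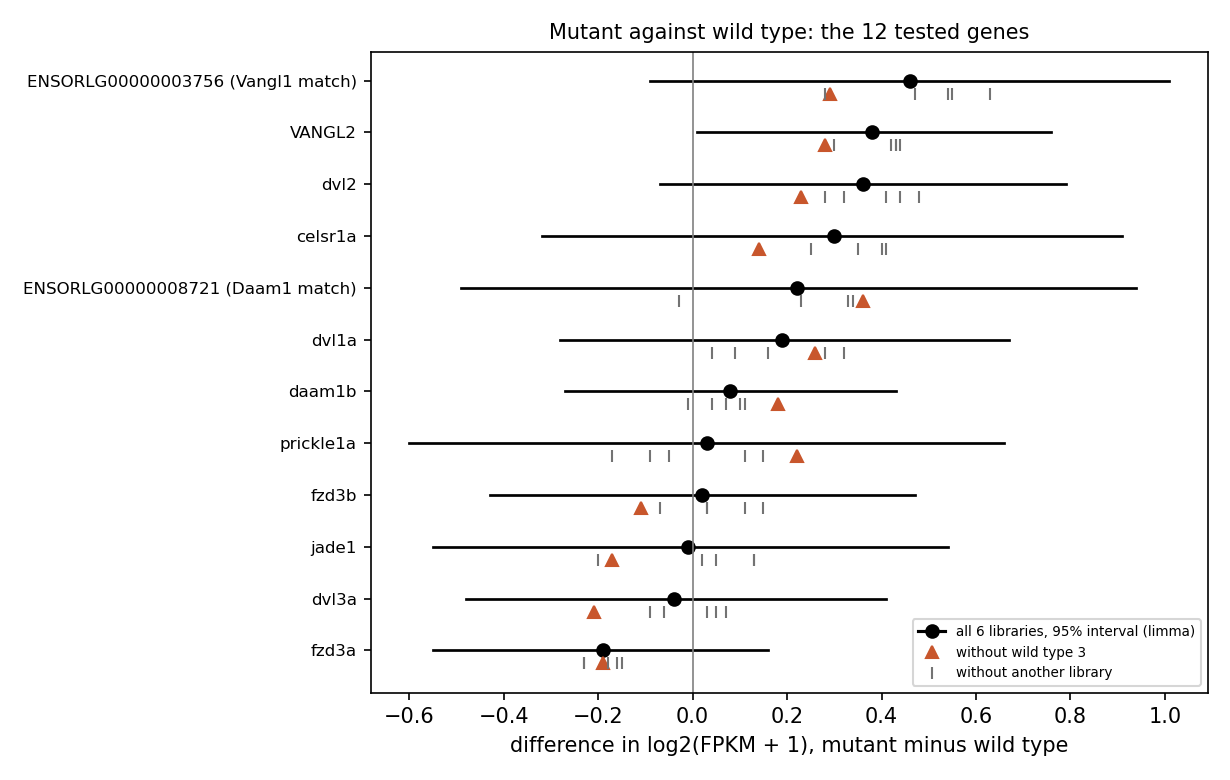
Difference in log2(FPKM + 1), mutant minus wild type, for the 12 tested genes: black points and lines give the limma estimate and its 95% interval with all 6 libraries, triangles the value without wild type 3, and grey ticks the values without each other library where the gene was still tested. The interval of VANGL2 (0.01 to 0.76) is the only one that does not include 0, before adjustment over all genes.

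Wild type 3 was the lowest of the 6 libraries for 7 of the 14 genes, namely dvl2, dvl3a, ENSORLG00000003756, VANGL2, celsr1a, fzd3b and jade1. All 7 are among the 12 tested genes. Of all tested genes, 29.4% were lowest in wild type 3 and 27.6% were highest in it. vangl1 and daam1b were highest in this library. Without wild type 3, the log2 differences of the 12 genes ran from -0.21 for dvl3a to 0.36 for ENSORLG00000008721, and 0 had an unadjusted p below 0.05 in limma. In that fit 1226 of all 14782 tested genes had an unadjusted p below 0.05. fzd3b then had the other sign (-0.11), jade1 came to -0.17, prickle1a to 0.22, daam1b to 0.18 and dvl1a to 0.26. The part of the pancreas and intestine genes of that library in these values was not tested.

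Some genes varied together over the 6 libraries. dvl2 and celsr1a were the most alike pair of the 12 (Pearson r = 0.96, Spearman rho = 0.77, 6 libraries; r = 0.89 without the 2 libraries farthest from the median of dvl2), and both were lowest in wild type 3. Of all other tested genes, 0.474% were at least as like dvl2 by Pearson r. dvl3a and fzd3b followed (r = 0.92, rho = 0.94, and r = 0.61 without the 2 farthest libraries). dvl2 had r = 0.88 with VANGL2, and also with ENSORLG00000003756, where it was 0.29 without the 2 farthest libraries and so rested on them. Of all other tested genes, 3.71% were at least as like dvl2 as VANGL2 was, and 3.89% as like as ENSORLG00000003756. VANGL2 and celsr1a also had r = 0.88, which was 0.34 without the 2 libraries farthest from the median of VANGL2. The pairs named here lie at the extremes of all pairs of the 12. dvl3a and prickle1a were the least alike (r = -0.92, and -0.11 without the 2 farthest libraries). These values run over all 6 libraries, wild type and mutant together, so differences between the groups and in library scaling enter them. They carry no test.

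jade1 and celsr1a led the named genes of their families, and the fzd3 and prickle1 genes did not. fzd7b, at 18.2 to 27.1 FPKM, and fzd6, at 14.5 to 24.2 FPKM, were the leading Frizzled receptors, and within a library fzd7b was 4.98 to 8.51 times and fzd6 3.86 to 7.58 times the level of fzd3b. prickle3 was above prickle1a in all libraries by 1.43 to 3.31 times. daam2 was at 3.89 to 9.31 FPKM, above daam1b in 4 of 6 libraries. jade1 was 5.31 to 9.77 times the level of jade3 and 24.5 to 64.3 times that of jade2. celsr1a was above celsr2 in all 6 libraries, by as little as 1.07 times in wild type 3, and above celsr3.

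**Figure D4:**
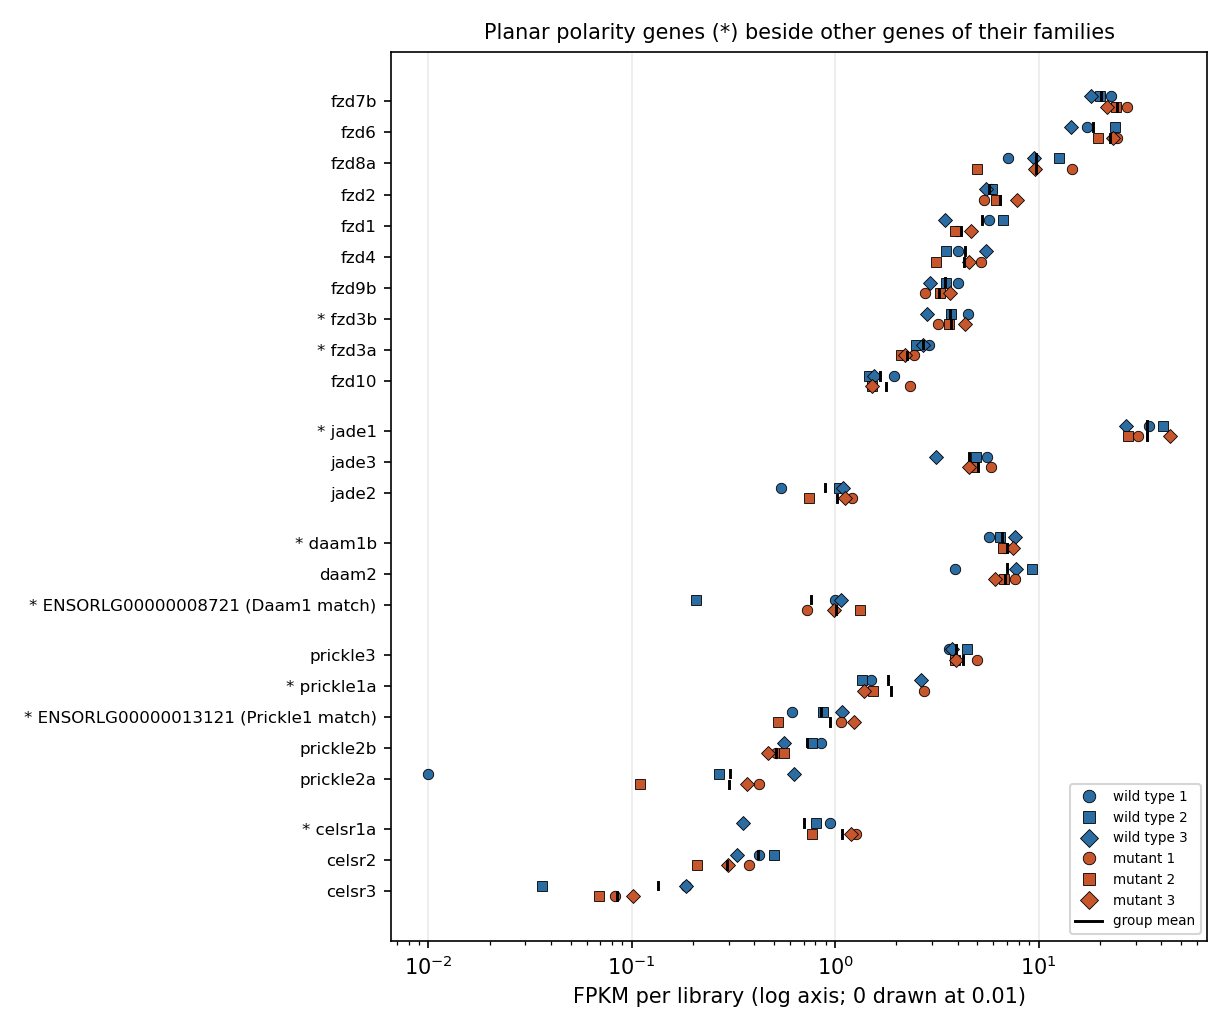
FPKM per library on a log axis for the genes with a symbol in the Frizzled, Jade, Daam, Prickle and Celsr families, and for 2 genes of the group known by an identifier, with the genes of the group marked by an asterisk; blue is wild type, red is mutant, black ticks are group means, and a value of 0 is drawn at 0.01. jade1 leads its family, whereas fzd7b and fzd6 lie above both fzd3 genes.

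Other genes of the pathway were described in 6 lists, matched in the same way, with rows without a symbol placed by their Swiss-Prot match. The Frizzled list shares fzd6 and fzd7 with the core list. limma called 0 genes in each list, in either direction, where it called 0.0592% of all tested genes. Counts at an unadjusted p below 0.05 are given for each list, against 7.13% of all tested genes, whose median log2 difference was 0.008. Without wild type 3, the list medians that follow were 0.14 for the core genes, 0.09 for the effectors, 0.03 for the beta-catenin branch, -0.02 for the Frizzled receptors, -0.02 for the Jade1 partners and 0.11 for the nephrocystins. limma-voom called 0 of all tested genes, with 941 at an unadjusted p below 0.05.

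The other core polarity and polarity Wnt genes had 17 of 28 rows tested, with a median log2 difference of 0.13, and 1 at an unadjusted p below 0.05. This was FAT4, a giant cadherin that pairs with Dachsous, at 1.19, 0.940 and 0.580 FPKM in wild type 1, 2 and 3 and at 2.23, 3.24 and 2.55 FPKM in mutant 1, 2 and 3. The groups stood apart, with a log2 difference of 0.95 (SE 0.21, adjusted p = 0.311 in limma), and 0.83 without wild type 3. Its wild-type mean was 0.902 FPKM, so it entered the test only through its higher mutant mean. PTK7, a Wnt co-receptor, had groups that overlapped (log2 difference 0.35, adjusted p = 0.782 in limma, and 0.18 without wild type 3). wnt5a, a ligand of this branch, was at 3.45 FPKM in wild type 3 and at 0.443 to 1.22 FPKM in the other 5 libraries, with a log2 difference of -0.67 (adjusted p = 0.804 in limma). It entered the test only through its wild-type mean, and without wild type 3 it fell below the filter.

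Of the effectors towards the cytoskeleton, 28 of 32 rows were tested, with a median of 0.13 and 2 at an unadjusted p below 0.05, both matches of the formin Fhod3 on chromosome 16. The list holds 8 rows that match Fhod3, of which 5 were tested, and whether they are separate genes or fragments is not known from the table. fhod3b was at 1.02, 1.37 and 1.88 FPKM in wild type and at 4.14, 2.13 and 4.06 FPKM in the mutant (log2 difference 0.85, adjusted p = 0.486 in limma, and 0.99 without wild type 3). ENSORLG00000026013 had a log2 difference of 1.23 (adjusted p = 0.449 in limma, and 1.06 without wild type 3). It rests on 45 reads over all libraries and entered the test only through its mutant mean (2.05 FPKM, against 0.286 FPKM in wild type). The mutant lay above wild type in every library for both. The other tested matches, all with overlapping groups, were fhod3a with a log2 difference of -0.46 (-0.78 without wild type 3), ENSORLG00000027813 with 0.46 (0.61) and ENSORLG00000025874 with 0.13 (0.06). ENSORLG00000027813 also entered the test only through its mutant mean (1.73 FPKM, against 0.801 FPKM in wild type). It rests on 29 reads over all libraries, and ENSORLG00000025874 on 38. The row named cdc42, a small GTPase that organises actin, was at 26.2 to 29.4 FPKM in wild type, below 30.3 to 35.8 FPKM in the mutant (log2 difference 0.28, adjusted p = 0.744 in limma, and 0.26 without wild type 3). Other tested matches of cdc42 had overlapping groups. These were the more abundant ENSORLG00000006335, with a log2 difference of 0.08 (0.18 without wild type 3), and ENSORLG00000022371, with 0.27 (0.29).

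The beta-catenin branch had 20 of 26 rows tested, a median of 0.04 and 1 gene at an unadjusted p below 0.05. nkd2a, an inhibitor that binds Dishevelled, was at 2.36, 1.95 and 2.42 FPKM in wild type and at 4.43, 3.36 and 3.09 FPKM in the mutant. All mutant libraries lay above wild type (log2 difference 0.50, adjusted p = 0.581 in limma, and 0.54 without wild type 3). Matches of axin1 (ENSORLG00000009838) and gsk3b (ENSORLG00000017950), parts of the complex that destroys beta-catenin, had log2 differences of 0.33 and 0.44 (adjusted p = 0.750 and 0.771 in limma), and 0.23 and 0.20 without wild type 3. axin2, a transcriptional target of the branch, has an entry AXIN2 that was tested (log2 difference -0.22, adjusted p = 0.891 in limma) and was named after its values were seen. It entered the test only through its wild-type mean, and without wild type 3 it fell below the filter.

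Frizzled receptors other than fzd3 had 10 of 13 rows tested, a median of -0.04 and 1 at an unadjusted p below 0.05. That was a Frizzled-5 match, ENSORLG00000010376, at 1.24, 1.31 and 3.58 FPKM in wild type and at 0.330, 0.777 and 0.577 FPKM in the mutant. Its groups did not overlap, with wild type 3 far above the rest (log2 difference -0.89, adjusted p = 0.636 in limma, and -0.55 without wild type 3). Its mutant mean was 0.561 FPKM, so it entered the test only through its higher wild-type mean. fzd7b and fzd6 had log2 differences of 0.25 and 0.28 (adjusted p = 0.810 and 0.835 in limma), and 0.17 and 0.13 without wild type 3.

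The list named Jade1 partners, which includes the acetyltransferase kat7 and the von Hippel-Lindau protein vhl, had all 13 rows tested. It had a median of 0.10 and 0 at an unadjusted p below 0.05. The list also holds jade2, jade3 and other scaffolds of acetyltransferase complexes (brpf1, brpf3 and brd1), so not all of its rows are partners of Jade1. A kat7 match, ENSORLG00000016728, was at 3.03 to 3.64 FPKM in wild type, below 4.06 to 6.51 FPKM in the mutant (log2 difference 0.43, adjusted p = 0.744 in limma, and 0.47 without wild type 3). The more abundant row kat7b had overlapping groups (log2 difference 0.15, adjusted p = 0.891 in limma, and -0.02 without wild type 3). brpf1 and brd1a, whose products are scaffolds of such complexes, had log2 differences of 0.27 and 0.26 (adjusted p = 0.804 and 0.819 in limma), and 0.17 and 0.13 without wild type 3. The more abundant row brd1b had a log2 difference of 0.01, and -0.07 without wild type 3. Nephrocystins of the same network had 6 of 7 rows tested, a median of 0.26 and 1 at an unadjusted p below 0.05. invs, which encodes inversin, was at 5.44, 7.19 and 4.62 FPKM in wild type and at 8.02, 8.73 and 8.19 FPKM in the mutant, without overlap. Its log2 difference was 0.48 (adjusted p = 0.604 in limma), and 0.36 without wild type 3 (unadjusted p = 0.0618 in limma).

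**Figure D5:**
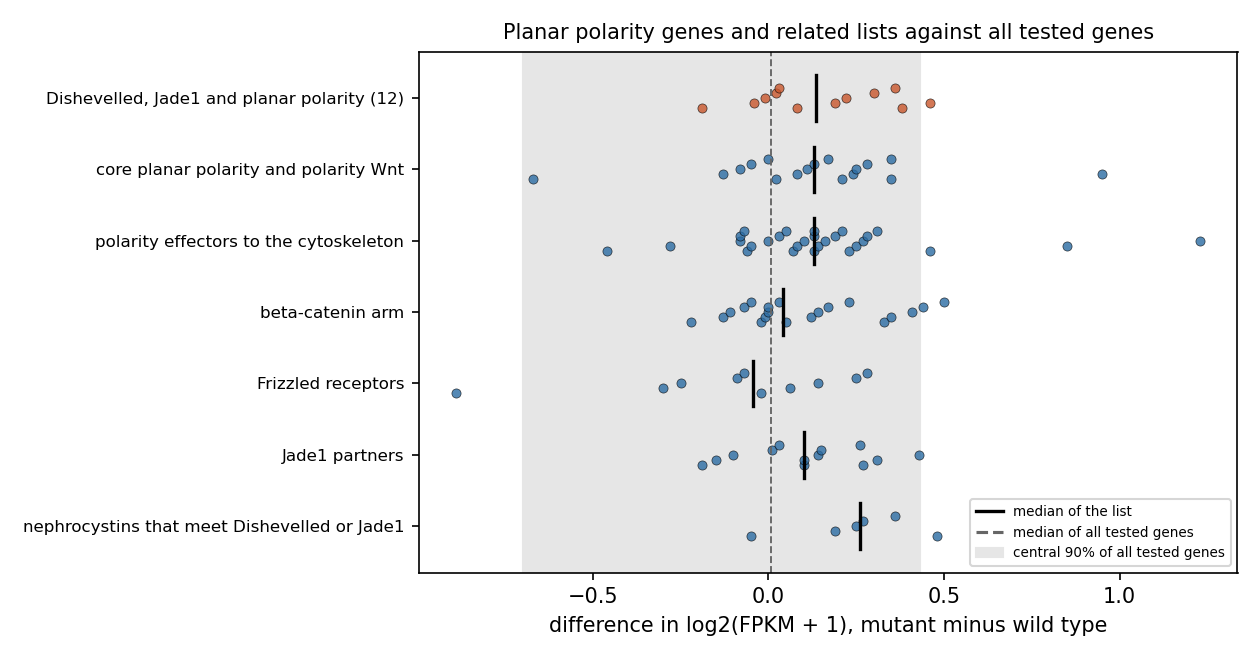
Difference in log2(FPKM + 1), mutant minus wild type, for each tested gene of the group (red) and of the 6 related lists (blue), with the median of each list as a black tick; the grey band holds the central 90% of all tested genes (-0.70 to 0.43) and the dashed line is their median. 11 of the 12 genes of the group lie inside the band, and ENSORLG00000003756 at 0.46 lies just outside it.

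Among marker lists of other cell types, the smooth muscle and fibroblast genes had a median log2 difference of 0.61. Of the 7 tested, 7 were positive and 2 had an unadjusted p below 0.05 in limma, against 7.13% of all tested genes. Summed over 8 rows and led by tagln, the list was at 311, 442 and 1367 FPKM in wild type 1, 2 and 3 and at 1089, 655 and 715 FPKM in mutant 1, 2 and 3. All mutant libraries lay above wild type 1 and 2, and wild type 3 lay above all others. Without wild type 3 the median was 1.22 and the 7 differences ran from 0.80 to 1.74. All 7 then had an unadjusted p below 0.05 (0.00283 to 0.0185), with a smallest adjusted p of 0.256 in limma. In that fit 1226 of all 14782 tested genes had an unadjusted p below 0.05. Of 8 names in the blood and endothelium list 5 were matched, and the hemoglobin names were not. The 4 tested genes of that list had a median of 0.39, and 0.44 without wild type 3. Of these, kdrl and cdh5 entered the test only through their mutant mean. The 6 rows of the list summed to 4.79 to 7.21 FPKM in wild-type and 7.95 to 14.0 FPKM in mutant libraries, without overlap, with cldn5b at 0 in all libraries. This separation came mainly from pecam1, the leading gene, whose mean was 2.0 FPKM in wild-type libraries against 6.22 FPKM in mutant ones. pecam1 had a log2 difference of 1.28, and 1.18 without wild type 3, at an unadjusted p of 0.00755 and 0.0235 in limma. kdrl (log2 difference 0.37) also had groups without overlap, whereas cdh5 (0.41) and cldn5a (-0.23) had overlapping groups. The untested tie1 had a wild-type mean of 0.371 FPKM against a mutant mean of 0.365 FPKM. The sum therefore does not show a shift shared by the whole list. The germ cell, Sertoli cell and Leydig cell lists had medians of 0.13, -0.06 and 0.15, each with 1 gene at an unadjusted p below 0.05 in limma. These were dmc1 with a log2 difference of 0.46 (0.41 without wild type 3), cldn11a with -0.76 (-0.97) and the leading star match with -0.33 (-0.43). The row named star had 0.77 (0.73), with overlapping groups. None of the marker genes was called in limma, and their part in the values of the polarity genes was not tested.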

How the data were processed

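Testis RNA of medaka, isolated with TRIzol per the labels, was sequenced in 6 libraries. The authors deposited 1 FPKM value per gene and library, with the gene length. Per the submitters' processing notes, the tools were featureCounts 1.5.0-p3, DESeq2 1.20.0, HISAT2 2.0.5, CASAVA 1.8 and fastp, with no step assigned. The genome build, strand setting and handling of reads with several matches are not given in the sources used here. Reads of close paralogs, and of genes that overlap on opposite strands, may therefore be exchanged.

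The FPKM values, multiplied by gene length, were whole multiples of 1 read in 100% of values above 0, so reads were recovered for limma-voom. The tolerance was 0.01 read or, for genes with many reads, a small relative error. Mutant and wild type were compared on log2(FPKM + 1) with limma 3.58.1 (R 4.3.3), with an intensity trend, robust moderation and no covariate, over all genes whose mean reached 1 FPKM in wild type or mutant. Adjusted p-values are Benjamini-Hochberg over all tested genes, and intervals are 95% intervals of the moderated fit. Fold changes on this scale understate those of low genes.

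The genes and lists were chosen with earlier results of these data known. Named beyond the group were nphp4, up to 3 genes per list with the smallest p and the most abundant marker of each cell type. Other rows of those genes and further markers were named after the values were seen. Some genes that this rule names are not reported here. Alternatives were a pseudocount of 0.1, no filter, a filter of 5 FPKM, library totals, limma-voom, a replicate block and leaving out each library. Replicate numbers are used as names of libraries, and the labels state no pairing.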

Additional observations from a re-analysis of the deposited data

How the results depend on the processing

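0 of the tested genes of the group and 0 genes of the 6 related lists were called in limma under each of the 12 alternatives. The count over all genes was 9, against 14 with library totals, 0 with limma-voom (941 at an unadjusted p below 0.05), and 2 to 18 with 1 library left out, 18 of them without wild type 3. The log2 difference of nphp4 was -1.22 to -0.77. The signs of dvl1a, dvl2, VANGL2, ENSORLG00000003756, celsr1a and fzd3a held in every alternative that tested them. Their sizes moved with 1 library left out, from 0.04 to 0.32 for dvl1a, 0.23 to 0.48 for dvl2, 0.28 to 0.44 for VANGL2, 0.28 to 0.63 for ENSORLG00000003756 and 0.14 to 0.41 for celsr1a, which fell below the filter without mutant 1. With library totals and limma-voom, dvl3a came to 0.01 and 0.02 and jade1 to 0.05 in both, while those settings moved the median of all tested genes to 0.058 and 0.065. With 1 library left out, dvl3a ran from -0.21 to 0.07, prickle1a from -0.17 to 0.22, fzd3b from -0.11 to 0.15, jade1 from -0.20 to 0.13, ENSORLG00000008721 from -0.03 to 0.36 and daam1b from -0.01 to 0.18. ENSORLG00000008721 fell below the filter without mutant 2, so its range lacks that value. The cause of these shifts was not tested. A replicate block left the log2 differences as they were and called 6 genes, 0 of the group. After the mean of each group was removed, the deviations of same-numbered libraries correlated at 0.31, -0.56 and -0.42 for replicates 1, 2 and 3. With 3 libraries per group these deviations depend on each other, so the values do not settle whether the numbers pair libraries. vangl1 and ENSORLG00000013121 rest on 286 and 317 reads, which limits what can be seen in them.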
